A study of Mus musculus with 60 samples.

Results

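The complementarity-determining region 3 (CDR3) is the loop of a T cell receptor (TCR) chain that is built where a V and a J segment, and in the beta chain a D segment, are joined. It opens with a cysteine of the V segment that the receptor fold needs, and a further cysteine inside the loop is uncommon. The CDR3 sequences described here carry such a further cysteine. They are the clonotypes whose CDR3 starts with cysteine, ends with phenylalanine, tryptophan or leucine, is 8 to 20 residues long and holds at least 1 more cysteine between its ends. There were 8919 of them among the 290120 clonotypes of 4 tables, of which 268230 had these lengths and ends. The TCR alpha chain (TCRA) gave 247 members in CD4+ and 244 in CD8+ T cells. The beta chain (TCRB) gave 4784 members in CD4+ and 3644 in CD8+ T cells. Each member was chosen by its sequence alone, and no read fraction entered the choice.

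Cysteines near the apex of CDR3 are known from receptors that react strongly with self peptides. Such receptors are found among thymocytes that have not yet passed clonal deletion, and among precursors of the intraepithelial lymphocytes of the gut that carry CD8αα homodimers. The TCR alpha chain is joined without a D segment, so its junction is short and the J stretch begins close to the V stretch. A cysteine in the loop can come from a germline segment or from the bases that are added and trimmed at the junction.

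The libraries came from a model of graft-versus-host disease after hematopoietic cell transplantation (HCT). Lethally irradiated WT BALB/c mice received T cell-depleted marrow of WT C57BL/6 donors in every group, together with C57BL/6 donor T cells that were WT, STAT3ko (Stat3 fl/fl with a CD4-Cre transgene, which deletes in CD4+ and CD8+ T cells) or STAT3koPD-1ko (Stat3 fl/fl and CD4-Cre on a PD-1-/- background, in which PD-1 is absent from every cell of the donor). Donor CD4+ and CD8+ T cells were sorted from the liver and the gut on day 6, each sample pooled from 3 recipients, and from the spleen before HCT. The labels do not say whether liver and gut libraries, or those of CD4+ and CD8+ T cells, came from the same recipients, and the tests treat them as separate unless stated. Each cell type and chain thus had 15 libraries, 2 per genotype and site on day 6 and 1 per genotype before HCT. The sort on CD8 did not separate CD8αα from CD8αβ cells, and clonotype tables hold no marker genes with which to examine the sorted cell types.

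The values are fractions of the reads of a library. The tables give no read counts, so the depth is taken as unknown. Bulk TCR reads count mRNA, so more cells of a clone and more receptor mRNA per cell cannot be told apart. The join listed a clonotype only if at least 2 of its libraries held it, up to 18 of which were counted and 15 of which are used here. It matched libraries by CDR3 amino acids, so the bases and segments listed for a clonotype may not be those of every library that holds it. In TCRA the clonotypes that were listed held 90.8% to 99.1% of the reads of a library, apart from the gut libraries numbered 2. In those they held 81.6% to 83.5% in CD4+ and 79.5% to 80.1% in CD8+ T cells. In TCRB the listed share was 81.5% to 98.4%, apart from the gut libraries numbered 2, in which it was 47.8% to 51.5% in CD4+ and 53.2% to 58.0% in CD8+ T cells. The libraries labelled before HCT shared between 61.8% and 89.8% of their listed clonotypes with the liver library numbered 1 of the same genotype, but between 16.4% and 46.8% with the liver library numbered 2. With the gut library numbered 1 they shared 53.7% to 80.2%, and with the gut library numbered 2, 6.87% to 40.1%. The libraries numbered 1 are therefore not independent of those before HCT, and results are also given for libraries numbered 1 and numbered 2 apart.

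The beta chain members were mainly the product of a single germline segment. TRBV1 supplied 4723 of the 4784 members (98.7%) in CD4+ T cells and 3535 of the 3644 members (97.0%) in CD8+ T cells. Of the TRBV1 clonotypes of the chosen lengths and ends, 99.5% in CD4+ and 99.7% in CD8+ T cells held the cysteine, and 23 and 11 lacked it. The last bases of Trbv1 in GENCODE vM21 (GRCm38, chr6:40891229-40891885, plus strand) encode it at position 3, counted from 1 at the conserved cysteine. Among all 130 V genes of both chains in that annotation, Trbv1 was the single one whose end held an inner cysteine codon. Among the 19 V pseudogenes whose end could be read in frame, Trbv22 (chr6:41212244-41212534, plus strand) was the single one. Both germline ends are shown from the conserved cysteine on, with the inner cysteine codon in capitals.
Trbv1: tgcaccTGCagtgcaga
Trbv22: tgtgccagcagtTGTc

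The germline codon is plain in the TRBV1 clonotypes of the CD4+ T cells that had the highest mean fraction and in those listed in most libraries. Here and in the sequences that follow, capitals mark the codon of the inner cysteine.
CD4 TCRB TRBV1 TRBJ2-4: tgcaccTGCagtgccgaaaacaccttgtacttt
CD4 TCRB TRBV1 TRBJ2-3: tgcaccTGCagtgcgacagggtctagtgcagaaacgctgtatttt
CD4 TCRB TRBV1 TRBJ1-2: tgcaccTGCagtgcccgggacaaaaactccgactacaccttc
CD4 TCRB TRBV1 TRBJ2-7: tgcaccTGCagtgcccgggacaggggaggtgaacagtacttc
CD4 TCRB TRBV1 TRBJ1-1, 15 residues: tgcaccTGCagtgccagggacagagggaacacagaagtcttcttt
CD4 TCRB TRBV1 TRBJ1-1, 14 residues: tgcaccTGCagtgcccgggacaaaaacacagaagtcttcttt
These 6 clonotypes share their V end and differ behind it. In CD8+ T cells the 4 with the highest mean and the 2 listed in most libraries were TRBV1 clonotypes as well, and the first 2 are shown.
CD8 TCRB TRBV1 TRBJ2-7: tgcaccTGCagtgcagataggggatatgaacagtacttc
CD8 TCRB TRBV1 TRBJ1-1: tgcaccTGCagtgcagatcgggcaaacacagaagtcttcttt

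Besides TRBV1 and the 9 CD4+ and 8 CD8+ members of TRBV22, no member used a V segment for which an inner cysteine codon was found in a germline end that could be read. In TCRA the members were spread over 77 of the 109 V segments in CD4+ and 68 of 109 in CD8+ T cells. Each table's 4 members with the highest mean fraction are given first, followed by the 2 further members listed in most libraries. Some V names, such as TRAV10, TRAV10D and TRAV10N, are near-identical copies, so that the assignment to a copy is uncertain.
CD4 TCRA TRAV10N TRAJ22: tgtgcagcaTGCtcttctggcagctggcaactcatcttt
CD4 TCRA TRAV10D TRAJ43: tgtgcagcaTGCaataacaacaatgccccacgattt
CD4 TCRA TRAV13-1 TRAJ27: tgtgctTGTtcaggcaaattaaccttt
CD4 TCRA TRAV3-3 TRAJ43: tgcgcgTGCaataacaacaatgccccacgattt
CD4 TCRA TRAV4-3 TRAJ31: tgtgctgccTGCaataacagaatcttcttt
CD4 TCRA TRAV7-4 TRAJ16: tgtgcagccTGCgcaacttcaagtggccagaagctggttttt
CD8 TCRA TRAV7D-5 TRAJ30: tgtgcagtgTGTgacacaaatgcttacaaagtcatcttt
CD8 TCRA TRAV16N TRAJ34: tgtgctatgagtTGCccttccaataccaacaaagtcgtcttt
CD8 TCRA TRAV13D-3 TRAJ9: tgtgctacgTGCtacaaacttaccttc
CD8 TCRA TRAV11 TRAJ27: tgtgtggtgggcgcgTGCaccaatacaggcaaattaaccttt
CD8 TCRA TRAV10N TRAJ9: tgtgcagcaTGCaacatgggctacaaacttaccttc
CD8 TCRA TRAV12-2 TRAJ43: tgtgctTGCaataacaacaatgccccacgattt
In all 12, the cysteine codon stands behind the first bases of the V segment and in front of a longer J end. TRAV10D and TRAV3-3 in CD4+ and TRAV12-2 in CD8+ T cells carried the same TRAJ43 end behind the cysteine.

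The 61 CD4+ and 109 CD8+ beta members outside TRBV1 were rare. They made up 0.973 per 1000 of the other clonotypes in CD4+ and 1.43 per 1000 in CD8+ T cells, against 3.97 and 4.13 per 1000 in the alpha chain. The 4 of highest mean fraction per cell type, a list added once it was seen that TRBV1 filled the others, show where the cysteine lies.
CD4 TCRB TRBV16 TRBJ2-7: tgtgcaagcagctttgacTGCcagtacttc
CD4 TCRB TRBV19 TRBJ2-4: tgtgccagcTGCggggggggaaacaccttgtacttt
CD4 TCRB TRBV17 TRBJ1-1: tgtgctTGCcgggacagggacgtcttcttt
CD4 TCRB TRBV16 TRBJ2-5: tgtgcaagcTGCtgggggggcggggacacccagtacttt
CD8 TCRB TRBV12-2 TRBJ2-3: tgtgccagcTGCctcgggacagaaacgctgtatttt
CD8 TCRB TRBV14 TRBJ2-1: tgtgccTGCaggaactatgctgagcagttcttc
CD8 TCRB TRBV22 TRBJ1-3: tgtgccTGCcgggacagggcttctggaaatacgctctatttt
CD8 TCRB TRBV15 TRBJ2-7: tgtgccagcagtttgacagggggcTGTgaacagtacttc
In TRBV16 TRBJ2-7 and TRBV15 TRBJ2-7 the codon lies beside or inside the J stretch, whereas in the other 6 it lies at position 3 or 4. There it lies inside the called V stretch, except in TRBV19 TRBJ2-4, where it lies between the V and the J stretch. The cysteine of TRBV22 TRBJ1-3 is at position 3 and is not the one of the germline Trbv22 end.

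The alpha chain cysteine lay close to the V side of the loop. Position 4 held 141 of 247 cysteines (57.1%) in CD4+ and 102 of 244 (41.8%) in CD8+ T cells, and position 3 held 39 (15.8%) and 69 (28.3%). The codon fell between the V and the J stretch in 169 CD4+ and 176 CD8+ members, inside the V stretch in 44 and 38, inside the J stretch in 28 and 25, and where both stretches overlap in 6 and 5. None of the V ends read holds an inner cysteine codon in TCRA, so the 44 and 38 cysteines within a V stretch differ from the annotated germline. The residue before the cysteine was most often alanine (86 in CD4+, 92 in CD8+), and the residue after it was most often asparagine (55 and 50). The codons TGT and TGC occurred 126 and 121 times in CD4+ T cells, and 107 and 137 times in CD8+ T cells.

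**Figure D1:**
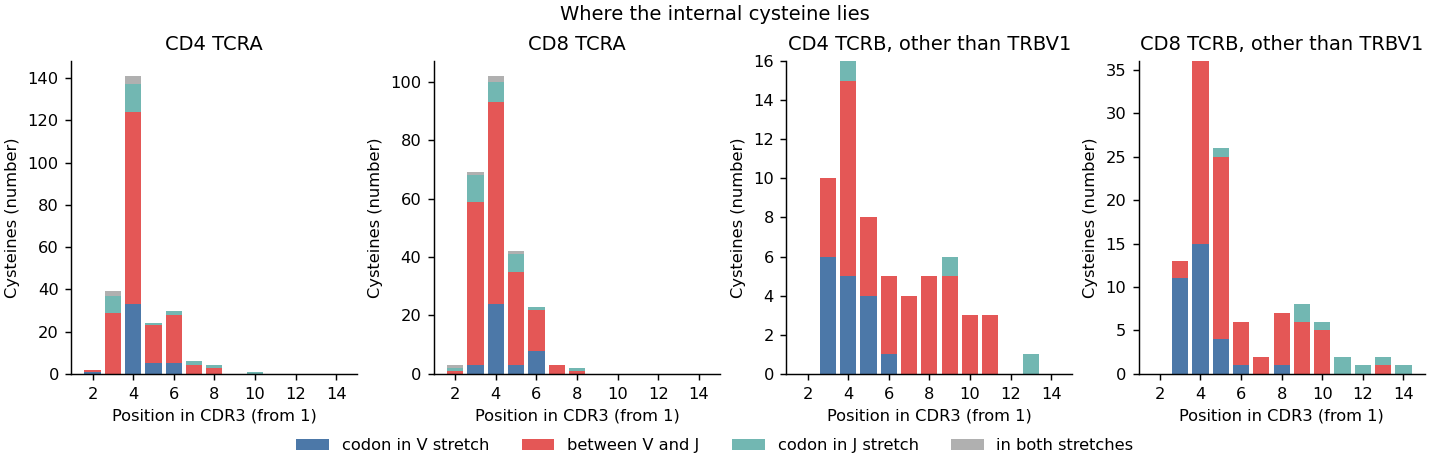
Number of internal cysteines (vertical axis) at each position of CDR3, counted from 1 at the conserved cysteine (horizontal axis), in the 4 tables, with TRBV1 clonotypes left out of the beta chain. Colors show whether the codon lies in the V stretch, in the J stretch, in both or between them. Position 4 is the tallest bar in each table, with 141, 102, 16 and 36 cysteines, and the beta chain has cysteines up to position 13 in CD4+ and 14 in CD8+ T cells.

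In the beta chain outside TRBV1, the cysteine was spread further along the loop. Position 4 held 16 of 61 in CD4+ T cells and 36 of 110 in CD8+ T cells, in which 1 clonotype had 2 inner cysteines. The codon lay between the V and J stretch in 42 and 69, in the V stretch in 16 and 32, and in the J stretch in 3 and 9. It overlapped the called D stretch in 8 and 15. Serine preceded it in 21 and 60 cases. A cysteine within 2 positions of the middle of the loop, here called central, was present in 27 (44.3%) and 46 (42.2%) of these members, against 58 (23.5%) and 59 (24.2%) of the alpha members. Only 4 TRBV1 members in each cell type were central.

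Members outside TRBV1 had slightly shorter loops than clonotypes without a cysteine. Their mean length was 13.1 ± 1.69 residues (SD over 247 clonotypes) in CD4+ and 12.9 ± 1.76 (244 clonotypes) in CD8+ TCRA, against 13.7 ± 1.43 and 13.8 ± 1.56 in clonotypes without a cysteine. In TCRB outside TRBV1 it was 13.1 ± 1.48 (61 clonotypes) and 13.1 ± 1.65 (109), against 13.9 ± 1.33 and 13.8 ± 1.48. The median TRBV1 member had 14 residues in both cell types. These are descriptions of clonotypes, which are not replicates.

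Among alpha V segments with at least 200 clonotypes, the largest shares of members in CD4+ T cells were in TRAV12-1 (4 of 276 clonotypes, 1.45%), TRAV12N-2 (4 of 358, 1.12%) and TRAV11 (5 of 485, 1.03%), while TRAV13N-3 had 0 of 200. In CD8+ T cells they were in TRAV9D-3 (6 of 340, 1.76%), TRAV12-2 (28 of 2059, 1.36%) and TRAV14-1 (4 of 386, 1.04%), while TRAV6-4 had 0 of 215. TRAV12-2 was the single one of these that rested on more than 6 members. In all, 9 of 73 V segments in CD4+ and 17 of 72 in CD8+ T cells had no member. Among J segments, TRAJ28 (7 of 633, 1.11%), TRAJ38 (6 of 642, 0.935%) and TRAJ16 (7 of 781, 0.896%) led in CD4+ T cells, and TRAJ9 (16 of 1836, 0.871%), TRAJ38 (5 of 617, 0.810%) and TRAJ30 (17 of 2152, 0.790%) led in CD8+ T cells. TRAJ5 (0 of 447) and TRAJ2 (0 of 476) stood at the low end.

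In TCRB, TRBV17 (7 of 1141, 0.613%) and TRBV22 (9 of 1668, 0.540%) came after TRBV1 in CD4+ T cells, and TRBV22 (8 of 440, 1.82%) and TRBV24 (4 of 286, 1.40%) in CD8+ T cells. TRBV13-3 had 0 of 3662 in CD4+ and TRBV23 had 0 of 384 in CD8+ T cells. The J segments with the largest shares of members among their clonotypes were TRBJ1-6 (12.7%), TRBJ1-5 (11.4%) and TRBJ1-1 (9.95%) in CD4+ T cells, with TRBJ2-3 lowest at 5.28%. In CD8+ T cells the largest shares were in TRBJ1-6 (7.05%), TRBJ1-5 (5.37%) and TRBJ1-4 (5.33%), with TRBJ2-3 again lowest at 3.72%. By number, TRBJ2-7 had the most members, with 736 in CD4+ and 749 in CD8+ T cells. Because nearly all beta members are TRBV1 clonotypes, these shares describe the J use of TRBV1. TRBJ1-1 was used by 15.3% of TRBV1 members and 10.4% of the other clonotypes in CD4+ T cells, and by 13.8% and 12.3% in CD8+ T cells. TRBJ1-6 was used by 6.31% and 3.32% in CD4+, and by 5.29% and 3.36% in CD8+ T cells.

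The same J end behind the cysteine recurred with different V segments. In CD4+ TCRA, 139 of the 247 members shared the bases behind the cysteine codon with at least 1 other member, over 41 such ends, and in CD8+ TCRA 127 of 244 did, over 37 ends. The same count was not made for clonotypes without a cysteine. The most frequent CD4+ ends came from TRAJ9 and TRAJ32, and in CD8+ T cells the same TRAJ9 end and 2 ends of TRAJ30 were equally frequent.
CD4 TCRA TRAJ9 end: aacatgggctacaaacttaccttc
CD4 TCRA TRAJ32 end: gggagcagtggcaacaagctcatcttt
CD8 TCRA TRAJ30 end, longer: gacacaaatgcttacaaagtcatcttt
CD8 TCRA TRAJ30 end, shorter: acaaatgcttacaaagtcatcttt
The TRAJ9 end followed the cysteine in 9 CD4+ members with 8 V segments, over 9 libraries, and in 8 CD8+ members with 7 V segments, over 13 libraries. The TRAJ32 end was seen in 8 CD4+ members with 8 V segments, over 7 libraries. The longer TRAJ30 end was seen in 8 CD8+ members with 6 V segments and the shorter in 8 with 7 V segments, over 9 and 11 libraries.

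Members outside TRBV1 were listed in fewer libraries than clonotypes without a cysteine. In TCRA the mean was 2.29 libraries in CD4+ and 2.39 in CD8+ T cells, against 3.78 and 3.75 for clonotypes without a cysteine. Only 10 CD4+ members (4.05%) and 12 CD8+ members (4.92%) were listed in 5 or more of the 15 libraries, against 24.5% and 24.04%. In TCRB outside TRBV1, 0 of 61 and 1 of 109 were, against 9.90% and 12.9%, and the maximum was 3 libraries in CD4+ and 5 in CD8+ T cells. TRBV1 members lay between, with 7.37% and 6.36%, and some were listed in all 15 libraries.

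**Figure D2:**
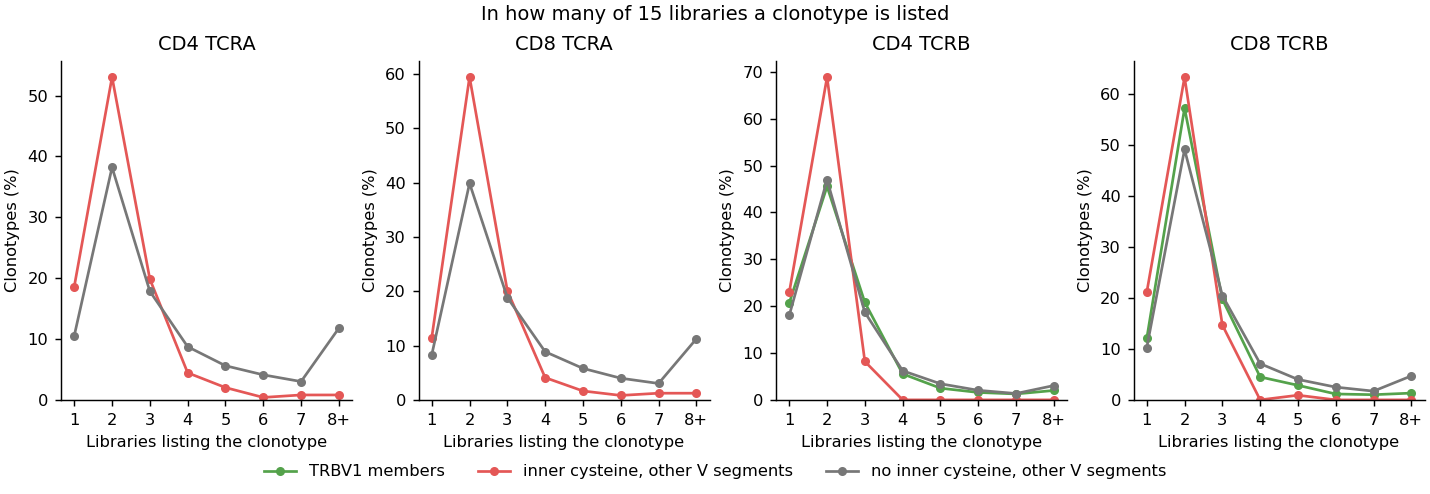
Percentage of clonotypes (vertical axis) by the number of libraries of a table that list them (horizontal axis, 8+ for 8 or more), for members outside TRBV1, TRBV1 members, and clonotypes of other V segments without an inner cysteine. Members outside TRBV1 fall off faster than the other clonotypes, with 4.05% and 4.92% of alpha members in 5 or more libraries against 24.5% and 24.04%.

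The most widely listed alpha member in CD4+ T cells was TRAV10D TRAJ43, in 11 libraries. Its fraction was 0.071% of reads in the STAT3ko library before HCT and 0.076% in STAT3ko liver replicate 1, and it was at most 0.0115% in the other 9. The STAT3ko libraries before HCT and of liver replicate 1 thus stood apart, and these are a pair that shared many clonotypes. TRAV10N TRAJ22 was listed in WT libraries alone, with 0.153% before HCT, 0.0423% in liver replicate 1 and 0.00372% in gut replicate 1.

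In CD8+ T cells, TRAV7D-5 TRAJ30 reached 0.189% in STAT3ko liver replicate 2 and 0.0242% in STAT3ko gut replicate 1, and lay at or below 0.00753% in 3 other gut libraries. TRAV16N TRAJ34 was listed in STAT3koPD-1ko libraries alone, with 0.152% in gut replicate 1 and 0.0011% in liver replicate 2. TRAV10N TRAJ9 was listed in 9 libraries, from 0.000261% to 0.0143%. The largest alpha members were therefore high in a single library or in a pair of related ones.

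Among TRBV1 members, CD4+ TRBV1 TRBJ2-4 was listed in 13 libraries of all genotypes and sites. It ranged from 0.00192% in STAT3ko gut replicate 1 to 0.186% in WT liver replicate 1, with 0.126% and 0.125% in the STAT3koPD-1ko gut libraries. In CD4+ T cells, 2 TRBV1 TRBJ1-1 clonotypes were listed in all 15 libraries, with highest values of 0.156% and 0.0826%, both in STAT3koPD-1ko liver replicate 2. Outside TRBV1, TRBV16 TRBJ2-7 was listed in STAT3ko libraries alone, with 0.0492% before HCT, 0.0583% in liver replicate 1 and 0.00577% in gut replicate 1. The most widely listed CD8+ beta member outside TRBV1 was TRBV14 TRBJ2-7, in 5 day 6 libraries, between 0.000371% and 0.00192%.

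Alpha members were shared between CD4+ and CD8+ T cells at a lower percentage than clonotypes without a cysteine, while beta members lay on both sides of that level. In TCRA, 4 members with the same V, J and CDR3 bases occurred in both cell types, which is 1.62% of the CD4+ and 1.64% of the CD8+ members, against 5.85% and 6.16% of the clonotypes without a cysteine. For TRBV1 members it was 119, or 2.52% and 3.37%, against 2.68% and 2.21% of the clonotypes without a cysteine. Outside TRBV1, 2 beta members were shared, or 3.28% and 1.83%. As libraries were joined by CDR3 amino acids, a loop listed with other bases or segments in the other cell type was not counted as shared.

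The share of a library is the summed fraction of the members divided by that of all clonotypes of these lengths and ends. In CD4+ TCRA it was 0.214%, 0.210% and 0.174% before HCT in WT, STAT3ko and STAT3koPD-1ko. In the liver it was lowest at 0.0722%, had a median of 0.151% and was highest at 0.238%. In the gut these were 0.0204%, 0.101% and 0.250%. The 3 gut libraries numbered 2 were the lowest in the table, at 0.0204% to 0.0591%. The 3 numbered 1 lay between 0.143% and 0.250%, within the range of the liver libraries or just above it. Listed clonotypes held 81.6% to 83.5% of reads in the gut libraries numbered 2, and the part of this in the result was not tested.

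In CD8+ TCRA the share was 0.133%, 0.0884% and 0.115% before HCT, 0.0940% to 0.535% in the liver and 0.0426% to 0.275% in the gut. The highest value was that of STAT3ko liver replicate 2, in which TRAV7D-5 TRAJ30 made up 36.1% of the members' fraction. In the gut the libraries numbered 2 lay at 0.0572%, 0.0867% and 0.0426% in WT, STAT3ko and STAT3koPD-1ko, and those numbered 1 at 0.193%, 0.189% and 0.275%. Listed clonotypes held 79.5% to 80.1% of reads in the gut libraries numbered 2, and the part of this in the result was not tested. The alpha share rested on 6 to 92 clonotypes per library in CD4+ and on 11 to 80 in CD8+ T cells.

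In CD4+ TCRB the share was 5.79%, 6.63% and 7.75% before HCT. It was 6.93% to 9.46% in the liver, with 8.08% and 8.42% in WT, 8.44% and 6.93% in STAT3ko and 9.46% and 9.29% in STAT3koPD-1ko. In the gut it was 6.91% and 5.46% in WT, 5.60% and 5.63% in STAT3ko, and 7.63% and 8.20% in STAT3koPD-1ko. In both sites the STAT3koPD-1ko libraries were the highest.

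In CD8+ TCRB the share was 3.35%, 2.67% and 2.65% before HCT and 2.84% to 3.46% in the liver. In the gut libraries numbered 1 it was 3.65%, 2.67% and 2.94%, and in those numbered 2 it was 1.62%, 1.32% and 1.50%. The gut libraries numbered 2 were thus below every other CD8+ TCRB library. These are the libraries whose listed clonotypes held 53.2% to 58.0% of reads, and the part of this in the result was not tested.

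**Figure D3:**
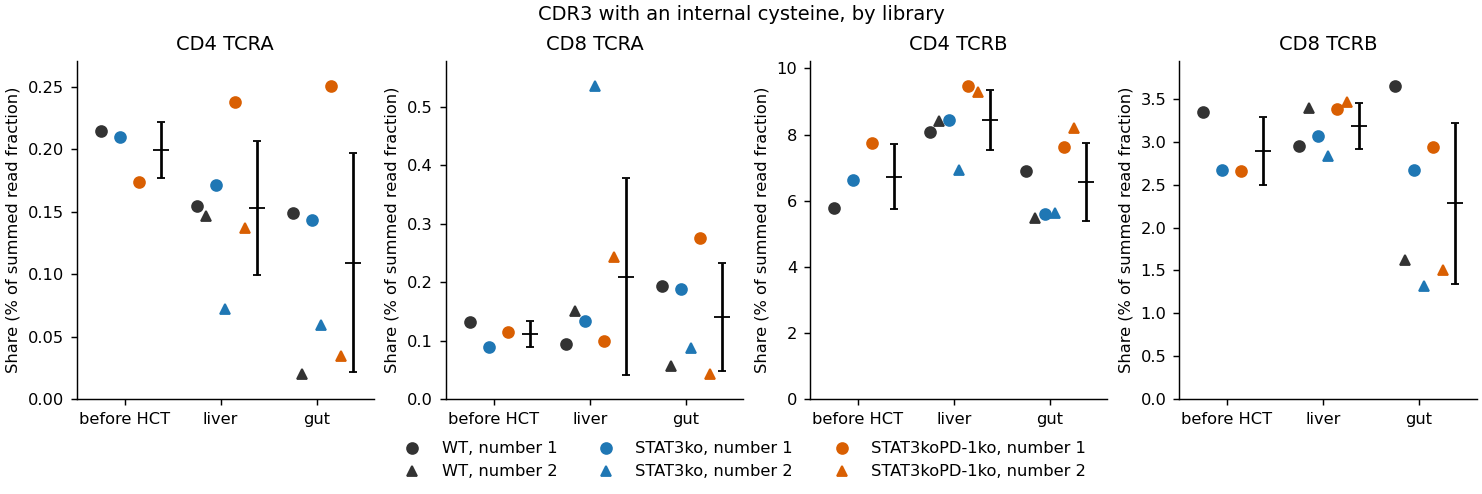
Share of summed read fraction held by members (vertical axis, %, each panel on its own scale from 0) before HCT and in the liver and gut on day 6, in the 4 tables. Each point is a library, colors are genotypes, circles are libraries numbered 1 and triangles those numbered 2, and the bars give mean ± SD of a site. CD4+ TCRB libraries on day 6 lie at 5.46% to 9.46%, all above the CD8+ TCRB libraries at 1.32% to 3.65%, and the gut triangles are the lowest in both TCRA panels and in CD8 TCRB.

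The beta share was higher in CD4+ than in CD8+ T cells. The 12 day 6 libraries averaged 7.51 ± 1.40% (SD, n = 12) in CD4+ and 2.73 ± 0.810% (n = 12) in CD8+ T cells, without overlap. The difference, CD8 minus CD4, was -4.77 percentage points (exact two-sided permutation of cell type labels within a tissue, adjusted p = 4.69e-06; p = 2.34e-06 is the smallest these permutations can give). The libraries before HCT had the same order. With TRBV1 left out, an alternative chosen after seeing the data, the difference was -0.0138 points (adjusted p = 0.415, exact permutation). In the alpha chain the mean was 0.131 ± 0.0732% in CD4+ and 0.175 ± 0.134% in CD8+ T cells (n = 12 each), a difference of 0.0436 points (adjusted p = 0.355, exact permutation). Without CD8+ STAT3ko liver replicate 2 it was 0.0108 points.

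This alpha difference went both ways by library number. It was -0.0203 points in the libraries numbered 1 (adjusted p = 0.525, exact permutation) and 0.107 points in those numbered 2 (adjusted p = 0.025, exact permutation). The latter rested on CD8+ STAT3ko liver replicate 2, without which, an alternative chosen after seeing the data, it was 0.0376 points (adjusted p = 0.205, exact permutation).

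Between gut and liver, the question is whether CDR3 loops with an inner cysteine are more common among donor T cells in the gut. No table showed a difference past an adjusted p of 0.05. In CD4+ TCRB the gut mean was 6.57 ± 1.18% and the liver mean 8.44 ± 0.916% (n = 6 each), a difference of -1.86 points (p = 0.0173, adjusted p = 0.0693, exact two-sided permutation over 924 divisions). In CD8+ TCRB the means were 2.28 ± 0.941% and 3.18 ± 0.267%, a difference of -0.899 points (adjusted p = 0.130, exact permutation). Nearly all of both beta values was TRBV1 use. Without TRBV1 the share was 0.0340 ± 0.0342% in the gut and 0.0813 ± 0.0609% in the liver in CD4+ TCRB, a difference of -0.0473 points, and 0.0369 ± 0.0198% and 0.0508 ± 0.0175% in CD8+ TCRB, a difference of -0.0139 points (n = 6 each, adjusted p = 0.390 for both, exact permutation). In CD4+ TCRA the means were 0.109 ± 0.0880% and 0.153 ± 0.0537%, a difference of -0.0440 points (adjusted p = 0.390, exact permutation), and in CD8+ TCRA 0.141 ± 0.0924% and 0.209 ± 0.168%, a difference of -0.0686 points (adjusted p = 0.463, exact permutation). Without STAT3ko liver replicate 2 the CD8+ TCRA difference was -0.00336 points.

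The difference varied with library number in 3 of the 4 tables. With libraries numbered 1 alone the gut minus liver difference was -0.00735 points for the alpha chain of CD4+ and 0.110 for that of CD8+ T cells, and -1.95 and -0.0446 points for their beta chains. With libraries numbered 2 alone the same 4 values were -0.0807, -0.247, -1.78 and -1.75 points. With 3 libraries against 3 the exact permutation test cannot give a p below 0.1. The CD4+ TCRB difference was thus of like size in both sets, and the CD8+ TCRB difference was near 0 in the libraries numbered 1. Without STAT3ko liver replicate 2 or without STAT3koPD-1ko gut replicate 2 the CD4+ TCRB difference was -2.17 or -2.19 points (adjusted p = 0.0433 and 0.0346), and without WT gut replicate 1 the CD8+ TCRB difference was -1.17 points (adjusted p = 0.0173, all exact permutation).

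The CD4+ TCRB value also depended on how TRBV26 was read. The lengths and ends of the rule left out 18324 CD4+ TCRB clonotypes, 17810 of them TRBV26 rows that begin in front of the conserved cysteine and hold it inside the listed sequence. Rows outside the rule held 22.1% to 23.5% of reads in the gut libraries numbered 1 and 12.6% to 13.2% in those numbered 2, against 7.15% to 11.1% in the liver and 4.71% to 5.60% before HCT. When 17807 of the TRBV26 rows were read from the conserved cysteine on, an alternative chosen after seeing the data, they brought 3 more members and a larger denominator. The share was then 4.88 ± 0.916% in the gut and 7.67 ± 0.905% in the liver, and the difference of -2.79 points passed the test (adjusted p = 0.0173, exact permutation). Without any limit of length and end, the conserved cysteine of the TRBV26 rows counts as an inner cysteine, and the difference was 13.7 points (adjusted p = 0.00866, exact permutation). In CD8+ TCRB only 2414 TRBV26 rows lay outside the rule, and the difference with them read in this way was -0.904 points (adjusted p = 0.117, exact permutation).

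Cysteine was next set beside the other 19 amino acids, each as the percentage of summed fraction whose CDR3 holds it between the ends. Of the 20 amino acids, 4 (20%) differed between gut and liver in each of the alpha tables, 3 (15%) in the CD4+ and 0 (0%) in the CD8+ beta table, at an adjusted p under 0.05 in the exact permutation test. In CD8+ TCRB, 5 amino acids had an unadjusted p under 0.05. Cysteine was among those called in none of the tables (adjusted p = 0.421, 0.699, 0.0649 and 0.184, exact permutation). In CD4+ TCRA glutamate fell from 16.9% in the liver to 14.8% in the gut, and in CD8+ TCRA methionine fell from 36.0% to 33.4%. In CD4+ TCRB alanine fell from 95.7% to 89.7% and asparagine rose from 45.0% to 48.8% (adjusted p = 0.0144 for both, exact permutation). Cysteine was the rarest internal residue of the alpha chain, and by the ratio of gut to liver it had the largest change of all 20 in both alpha tables (log2 ratio -0.49 and -0.57), short of the threshold in both. In CD4+ TCRA this rested on the gut libraries numbered 2, since in the libraries numbered 1 the means of gut and liver were 0.181% and 0.188%. In CD8+ TCRA it rested on STAT3ko liver replicate 2, without which, an alternative chosen after seeing the data, the log2 ratio was -0.03 and cysteine ranked 8 of 20.

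Against the libraries before HCT, no site and table passed the test with the lengths and ends of the rule, in which 6 libraries against 3 give 84 divisions. The largest difference was in CD4+ TCRB, where the liver was 1.71 points above the mean of 6.72 ± 0.986% (n = 3) before HCT (p = 0.0476, adjusted p = 0.381, exact permutation). The gut was at -0.150 points (adjusted p = 0.857, exact permutation), and leaving out 1 library moved this to between -0.619 and 0.364 points. In CD8+ TCRB the liver was at 0.292 and the gut at -0.608 points from 2.89 ± 0.394% (n = 3). In CD4+ TCRA they were at -0.0462 and -0.0902 points from 0.199 ± 0.0221%, and in CD8+ TCRA at 0.0972 and 0.0286 points from 0.112 ± 0.0222%. Leaving out 1 library moved the CD8+ TCRA values to between 0.0319 and 0.120 and between 0.00164 and 0.0482 points. Over all 8 tests adjusted p was 0.381 to 0.857 (exact permutation). As the libraries before HCT overlapped with those numbered 1, these p-values treat related libraries as separate.

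Genotype was compared within tissue on day 6. In CD4+ TCRB the mean share over liver and gut was 8.65% in STAT3koPD-1ko, 7.22% in WT and 6.65% in STAT3ko. The range of 2.00 points passed the test (adjusted p = 0.0267, exact permutation of genotype labels within tissue, 8100 arrangements). All 4 STAT3koPD-1ko libraries exceeded the WT and STAT3ko libraries of the same tissue. With labels permuted only within a replicate number, adjusted p was 0.0741 (exact permutation, replicate block). If liver and gut libraries of a number came from the same recipients, each genotype has 2 pools. With the libraries of a pool moved together, an alternative chosen after seeing the data, p was 0.133 (adjusted p = 0.533, exact permutation over 90 arrangements, which cannot give a p under 0.0667). Without either of the STAT3ko gut libraries adjusted p was 0.083, and without either of the STAT3koPD-1ko gut libraries it was 0.08 (exact permutation). STAT3koPD-1ko was also the highest of the single libraries before HCT, with 7.75% in STAT3koPD-1ko against 5.79% in WT and 6.63% in STAT3ko.

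The range was smaller, and STAT3koPD-1ko was no longer the highest, when abundance or TRBV1 was set aside. Counted once each, members made up 6.28% to 6.56% of clonotypes in the day 6 STAT3koPD-1ko libraries, 5.69% to 7.29% in WT and 4.77% to 6.68% in STAT3ko, and the means were 6.47% in STAT3koPD-1ko, 6.66% in WT and 6.16% in STAT3ko, a range of 0.501 points (adjusted p = 0.753, exact permutation). Outside TRBV1 the mean share was 0.0411%, 0.0373% and 0.0947% in the same order, a range of 0.0574 points (adjusted p = 0.667, exact permutation). In the other tables the genotypes ranged over 0.430 points in CD8+ TCRB, 0.0535 in CD4+ TCRA and 0.113 in CD8+ TCRA (adjusted p = 0.650 for each, exact permutation). Leaving out 1 library moved these ranges to between 0.163 and 0.731, 0.0128 and 0.0922, and 0.0415 and 0.161 points.

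A cysteine near the middle of the loop is the form most often linked to self-reactivity, and it was rare in every library. Between 1 and 21 central clonotypes were listed per alpha library, and between 0 and 12 per beta library. The mean central share was 0.0240 ± 0.0229% in the gut and 0.0327 ± 0.0210% in the liver in CD4+ TCRA, and 0.0213 ± 0.0164% and 0.0485 ± 0.0412% in CD8+ TCRA (n = 6 each). In CD4+ TCRB it was 0.0116 ± 0.0133% and 0.0341 ± 0.0330%, and in CD8+ TCRB 0.0151 ± 0.00665% and 0.0149 ± 0.0142%. The differences were -0.00862, -0.0272, -0.0224 and 0.000284 points, and none passed the test (adjusted p = 0.670, 0.355, 0.355 and 0.965, exact permutation). Leaving out 1 library moved them to between -0.0152 and -0.00186, -0.0329 and -0.0118, -0.0287 and -0.0138, and -0.00253 and 0.00557 points, in the same order. In STAT3koPD-1ko gut replicate 2 no central cysteine and no member outside TRBV1 was listed in CD4+ TCRB.

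Counted once each, alpha members made up 0.185% to 0.224% of clonotypes before HCT, 0.192% to 0.301% in the liver and 0.0890% to 0.331% in the gut in CD4+ T cells. In CD8+ T cells these ranges were 0.230% to 0.272%, 0.209% to 0.338% and 0.104% to 0.356%. In TCRB outside TRBV1 the liver libraries held 0.0411% to 0.127% in CD4+ and 0.0518% to 0.171% in CD8+ T cells, and the gut libraries 0% to 0.0992% and 0.0770% to 0.117%. The gut libraries numbered 2 were again the lowest in TCRA, at 0.0890% to 0.160% over both cell types. They are also the TCRA libraries with the lowest listed share of reads, and the part of this in the result was not tested.

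**Figure D4:**
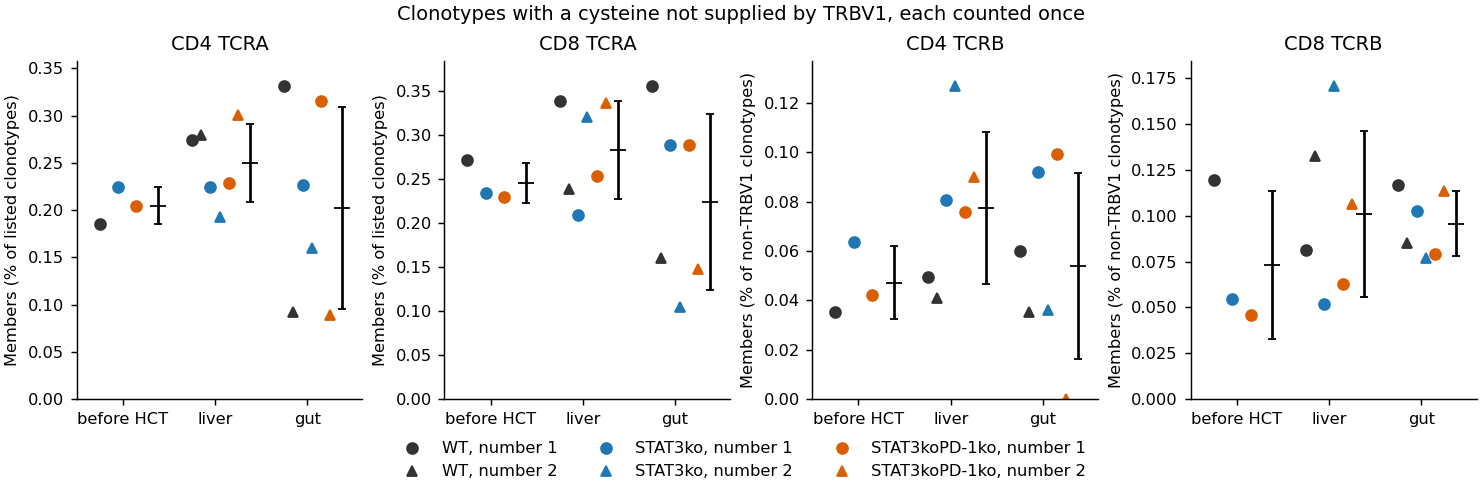
Members outside TRBV1 as a percentage of listed clonotypes, each counted once (vertical axis), before HCT and in the liver and gut on day 6. In the TCRB panels TRBV1 is left out of members and of all clonotypes. Each point is a library, colors are genotypes, circles and triangles are libraries numbered 1 and 2, and bars give mean ± SD of a site. The gut triangles lie below all other points in both TCRA panels, but not in CD8 TCRB, where the gut libraries lie at 0.0770% to 0.117%.

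Within a library, members were compared between abundant clonotypes, with more than 0.01% of reads, and the other listed clonotypes. In TCRA, members were rarer among abundant clonotypes. They made up 0.119 ± 0.0979% of abundant and 0.244 ± 0.0751% of other clonotypes in CD4+ T cells, lower in 11 of 12 libraries, with a difference of -0.126 points (adjusted p = 0.00260, exact two-sided sign permutation). In CD8+ T cells they made up 0.125 ± 0.103% and 0.274 ± 0.0882%, lower in 12 of 12 libraries, with a difference of -0.150 points (adjusted p = 0.000977, exact sign permutation). The number of abundant alpha members was between 0 and 7 per library. With the limit set at 0.1% of reads, the CD8+ TCRA difference was 0.123 points (adjusted p = 0.701), and with 0.001% the CD4+ TCRA difference was -0.0502 points (adjusted p = 0.206, both exact sign permutation).

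In TCRB the difference was of opposite sign in the 2 cell types, and the contrast between them was not tested. In CD8+ TCRB, members made up 2.55 ± 0.922% of abundant and 3.81 ± 0.576% of other clonotypes, lower in 12 of 12 libraries (difference -1.26 points, adjusted p = 0.000977, exact sign permutation). In CD4+ TCRB they made up 7.82 ± 1.86% and 6.08 ± 0.810%, higher among abundant clonotypes in 10 of 12 libraries (difference 1.73 points, adjusted p = 0.0171, exact sign permutation). The exceptions were the WT and STAT3ko gut libraries numbered 1, at -0.639 and -2.76 points, while all 6 liver libraries lay between 1.79 and 4.13 points. With the limit at 0.1% of reads both calls were lost, at 3.28 points in CD4+ and -1.86 points in CD8+ TCRB (adjusted p = 0.271 and 0.172, exact sign permutation). They were also lost in the libraries numbered 1 alone, and kept in those numbered 2. Outside TRBV1 the difference was -0.00781 points in CD4+ TCRB (adjusted p = 0.673, exact sign permutation) and -0.0786 points in CD8+ TCRB (adjusted p = 0.00326, exact sign permutation).

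**Figure D5:**
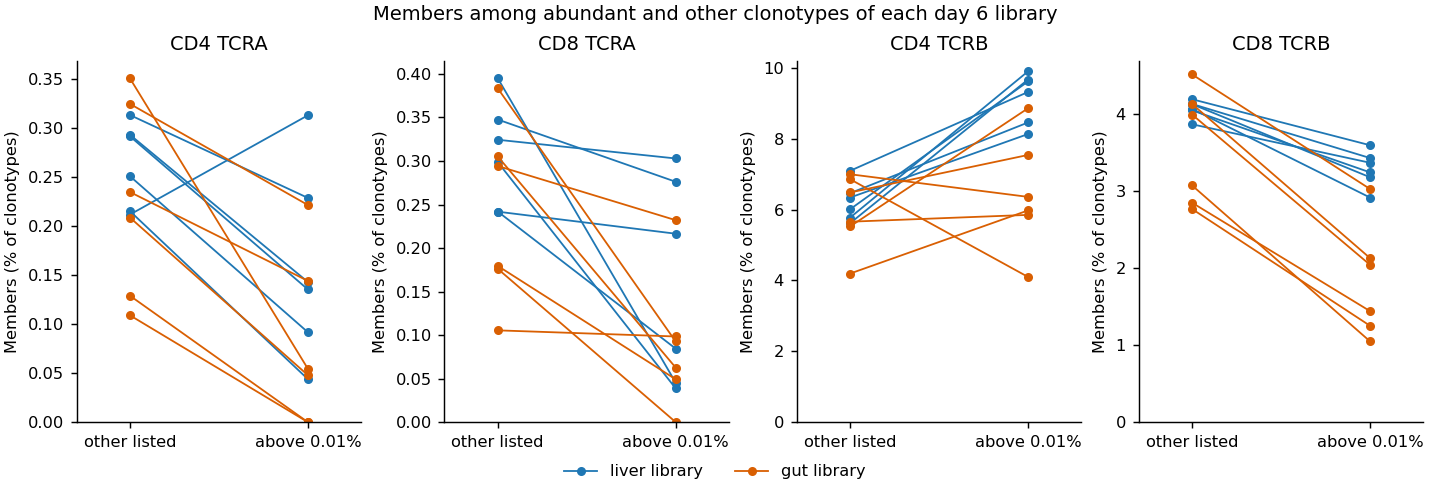
Members as a percentage of clonotypes (vertical axis, each panel on its own scale from 0) among clonotypes with more than 0.01% of reads and among the other listed clonotypes. Each line is a day 6 library, blue for liver and orange for gut. Lines fall in 11 of 12 libraries in CD4 TCRA and in 12 of 12 in CD8 TCRA and CD8 TCRB, and rise in 10 of 12 in CD4 TCRB.

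Some members outside TRBV1 lay next to a far more abundant clonotype of nearly the same sequence. A clonotype of the same V and J that differs at a single base and had at least 10 times the fraction, in the library where the member was highest, existed for 0 of 247 CD4+ and 3 of 244 CD8+ alpha members (1.23%), against 0.539% and 0.585% of clonotypes without a cysteine. In TCRB outside TRBV1 it existed for 2 of 61 (3.28%) and 9 of 109 (8.26%), against 0.364% and 0.258%. Whether such members are reading errors of their neighbor was not tested.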

How the data were processed

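Donor CD4+ and CD8+ T cells were profiled by TCR alpha and beta sequencing (SMARTer mouse TCR kit, MiSeq). The authors called clonotypes with miXCR and joined libraries by CDR3 amino acids with VDJtools. The deposited values are the fraction of a library's reads. A clonotype had to occur in at least 2 libraries of the join, which counted up to 18, of which 15 per table were used here. The build named by the submitters' processing notes is mm10.

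Members and lists were chosen with earlier results of these data known. Shares were computed with Python 3 tools (numpy, pandas) and compared by exact permutation over libraries, with Benjamini-Hochberg adjustment within each family (2, 4, 8 or 20 tests) and a threshold of 0.05. Functions were tested on simulated data. Named clonotypes were the 4 of highest mean fraction and 2 further ones listed in most libraries, and segments with at least 200 clonotypes the 3 highest and the lowest. The study's methods mention 2 batches, each of 3 pooled mice, which the labels do not tie to the replicate numbers; if the numbers mark these batches, the results given by number are within-batch values. P-values measure the spread between samples, which may be technical. Alternatives are given in the closing section. No row held a stop or frame shift.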

Additional observations from a re-analysis of the deposited data

Results flagged for a closer look

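The CD8+ TCRA share of STAT3ko liver replicate 2, 0.535%, lay apart from the other 5 liver libraries of the table, which ranged from 0.0940% to 0.242%. Its gap to the nearest library was 0.664 of the range of the 6, above the 95% limit of Dixon's test. TRAV7D-5 TRAJ30 held 36.1% of the members' fraction there, and without that library the CD8+ TCRA gut minus liver difference was -0.00336 points. Chance flags about 1 in 20 groups, and 16 groups were examined.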

How the results depend on the processing

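Of 338 recalculations under other settings, 285 kept direction and side of the threshold, 21 lost the call, 5 gained it and 27 changed sign. The cause was not tested. TRBV26 reading, TRBV1 removal, the joint move of liver and gut libraries and the removal of the CD8+ STAT3ko liver library from those numbered 2 were chosen after seeing the data. Values are percentage points with exact permutation tests.

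The CD4+ TCRB gut minus liver difference passed the test as a share of all reads (-3.73). That value also carries the part of reads in clonotypes of the rule, 34.6% to 61.5% in the gut and 74.5% to 85.5% in the liver. The difference passed as well without the 10 most abundant clonotypes (-1.88) and with TRBV26 read from the conserved cysteine (-2.79), and was 13.7 with every length and end. There, gut and liver minus before HCT were 19.2 and 5.49, both past the threshold (adjusted p = 0.0476, exact permutation), the abundance difference was -9.43 and the genotype range 1.73, its call lost.

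The CD4+ TCRB genotype range also lost its call with V use held (0.0514), clonotypes in at least 3 libraries (2.49), cysteines between V and J (0.0646), each clonotype once (0.501), share of all reads (1.28), no TRBV1 (0.0574), and libraries numbered 1 (1.53) or 2 (2.47) alone, where 36 arrangements allow no call. With the replicate block it was 2.00 (adjusted p = 0.0741, exact permutation), and the block ended no other call. With liver and gut libraries of a number moved together the call was lost as well (2.00, adjusted p = 0.533, exact permutation), and 90 arrangements cannot give a p under 0.0667. The deviations in V use of same-numbered liver and gut libraries correlated with r of -0.419 to 0.383, of both signs. With so few libraries this cannot show whether they came from the same recipients, so the main tests did not take the numbers as pairs.

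CD8 minus CD4 in TCRB lost its call between V and J (-0.0248) and without TRBV1 (-0.0138). In TCRA it was -0.0203 in libraries numbered 1, and 0.107 in those numbered 2, where it gained a call that was absent without the CD8+ STAT3ko liver library (0.0376). The CD8+ TCRA gut minus liver difference was 0.110 in libraries numbered 1.

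Against before HCT, signs changed for the liver with V use held (CD8+ TCRB -0.00362), at least 3 libraries (CD8+ TCRB -0.242), between V and J (CD4+ TCRA 0.0123), each once (CD4+ TCRA 0.0453, CD4+ TCRB -0.284), libraries numbered 1 (CD8+ TCRA -0.00283) and no TRBV1 (CD8+ TCRB -0.00287). For the gut they changed with at least 3 libraries (CD4+ TCRB 0.0633, CD8+ TCRA -0.0238), between V and J (CD8+ TCRB 0.00550), each once (CD8+ TCRA -0.0212), libraries numbered 1 (CD8+ TCRB 0.196) and numbered 2 (CD8+ TCRA -0.0498).

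The central share changed sign in CD8+ TCRB with V use held (-0.000562), at least 3 libraries (-0.00222), share of all reads (-0.00269) and libraries numbered 2 (-7.69e-05), in CD4+ TCRA with at least 3 libraries (0.000392) and libraries numbered 1 (0.00789), and in CD8+ TCRA with libraries numbered 1 (0.00968). The log2 scale was not run for CD4+ TCRB, where a library was at 0.

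The abundance difference lost its call in libraries numbered 1, at -0.117 and -0.227 for the CD4+ and CD8+ alpha chain and at 1.23 and -1.28 for the beta chain. For 6 libraries the smallest p is 0.0312, which both CD8+ tables reached before adjustment, with all 6 libraries lower (adjusted p = 0.0625, exact sign permutation). In libraries numbered 2 it kept all 4 calls (adjusted p = 0.0312 each, exact sign permutation). A limit of 0.1% ended the calls in CD4+ TCRB (3.28), CD8+ TCRB (-1.86) and CD8+ TCRA (0.123), and a limit of 0.001% that in CD4+ TCRA (-0.0502). In CD4+ TCRB it was 0.00218 between V and J and -0.00781 without TRBV1.

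Leaving out each library in turn gave -2.19 to -1.64 for gut minus liver in CD4+ TCRB, -1.17 to -0.707 in CD8+ TCRB, -0.619 to 0.364 for gut minus before HCT in CD4+ TCRB, 1.73 to 2.28 for its genotype range and -0.00253 to 0.00557 for the central share in CD8+ TCRB. With no change of call or sign it gave -0.0723 to -0.0263 for gut minus liver in CD4+ TCRA, -0.0955 to -0.00336 in CD8+ TCRA, 0.0319 to 0.120 for liver and 0.00164 to 0.0482 for gut minus before HCT in CD8+ TCRA, 0.173 to 0.519 and -0.881 to -0.380 for the same in CD8+ TCRB, -0.0631 to -0.0300 for liver and -0.118 to -0.0724 for gut minus before HCT in CD4+ TCRA, -0.0287 to -0.0138 for the central share in CD4+ TCRB, 0.0108 to 0.0556 for CD8 minus CD4 in TCRA, and -0.0152 to -0.00186 and -0.0329 to -0.0118 for the central share in CD4+ and CD8+ TCRA. The value nearest 0 came without STAT3ko liver replicate 2 in 4 of the 5 CD8+ alpha ranges, the exception being gut minus before HCT, where it came without STAT3koPD-1ko gut replicate 1. Without read counts the depth is taken as unknown, and few alpha members per library limit what can be seen.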
